A study of Rattus norvegicus with 3 samples.

Results

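The 10 factors that direct amacrine and horizontal cell fate were followed in neonatal rat retina. They were found in the deposited table by gene symbol, and all 10 of 10 were listed among its 18425 genes. The retinas came from wild type Sprague Dawley rats injected into the vitreous at postnatal day 1 (P1) and were collected at P4. The citrate buffer library received 1 µl of buffer at pH 4.5, the saline library 1 µl of saline, and the STZ library 1 µl holding 10 µg of streptozotocin (STZ), a glucosamine-nitrosourea that alkylates DNA and was dissolved in the same buffer. There was 1 library per group, so no difference below has a replicate check or a p-value, and how many retinas entered a library is not given in the sources used here. The libraries held 21977876 to 22031287 reads. Defining retinal markers were present in all of them, with a mean FPKM (fragments scaled to transcript length and library size) of 380 for the photoreceptor factor Crx and 6.67 for the horizontal cell calcium-binding protein Calb1.

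Amacrine and horizontal cells are the inhibitory interneurons of the retina. Both arise from progenitors that express the forkhead factor Foxn4, which activates the basic helix-loop-helix factor Ptf1a in cells that will leave the ganglion, photoreceptor and bipolar routes. The AP-2 factors Tfap2a and Tfap2b act downstream of Ptf1a in both lineages. Barhl2 and Bhlhe22 then act in amacrine subtypes, while Onecut1, Onecut2, Lhx1 and Prox1 are known for horizontal cells. Horizontal cells are born before birth in rodents, and amacrine genesis reaches into the first postnatal days. The study used Onecut2 and AP-2 alpha proteins as stains for horizontal and amacrine cells. It counted them in retinas older than P4 and reported no effect of STZ on their numbers. Transcripts at P4 are another measure, and some of these factors are also expressed outside those cell types.

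Promoter sequence from RefSeq (build GRCr8) was on hand for 4 of the 10 genes by NCBI gene identifier. The promoters of Foxn4 and Barhl2 are shown because their transcripts lay on opposite sides of both controls in the STZ library. Each holds 250 bases before and 50 after the gene's start, 5′ to 3′. Capitals mark E-boxes (CANNTG, the core bound by basic helix-loop-helix factors such as Ptf1a) and AP-2 sites (GCCNNNGGC, the core bound by Tfap2 factors), both searched on both strands.
Foxn4, chr12:48000007-48000306, + strand: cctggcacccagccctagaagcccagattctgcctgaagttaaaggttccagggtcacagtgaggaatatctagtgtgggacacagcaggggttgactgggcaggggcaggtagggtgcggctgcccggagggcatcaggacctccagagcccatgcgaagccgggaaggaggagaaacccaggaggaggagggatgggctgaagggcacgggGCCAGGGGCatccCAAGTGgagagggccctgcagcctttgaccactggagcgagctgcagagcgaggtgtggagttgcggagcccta
Barhl2, chr14:3485059-3485358, + strand: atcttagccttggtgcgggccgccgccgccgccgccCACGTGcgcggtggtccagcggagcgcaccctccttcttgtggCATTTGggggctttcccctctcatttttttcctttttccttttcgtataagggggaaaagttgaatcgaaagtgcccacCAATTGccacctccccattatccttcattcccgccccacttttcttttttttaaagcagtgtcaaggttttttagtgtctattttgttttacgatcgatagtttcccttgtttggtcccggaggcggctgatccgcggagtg
The Foxn4 window held 1 AP-2 site and 1 E-box close to the start, with no overlap between them. The Barhl2 window held 3 E-boxes and 0 AP-2 sites. Of 33469 rat promoters of this length, 72.1% held an E-box and 15.1% an AP-2 site. The Lhx1 window held 1 AP-2 site and the Ptf1a window held neither motif. A match describes the letters in the window and is not a bound site.

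The factors spanned a wide range of levels. By FPKM, which allows comparison between genes of unequal length, Tfap2b was the most abundant with a mean of 114 over the 3 libraries. Tfap2a followed at 33.8, Foxn4 at 28.2, Prox1 at 25.6 and Barhl2 at 25.6. The ranges over libraries overlapped between each neighbouring pair from Tfap2a to Barhl2, so the order of those 4 is not settled. Bhlhe22 stood at 14.6. The remaining factors were weak, with Ptf1a at 3.45, Onecut1 at 2.55, Lhx1 at 1.11 and Onecut2 at 0.61, and their ranges did not overlap with those of their neighbours. The 10 genes together took 0.0956% of the reads in buffer, 0.0903% in saline and 0.104% in STZ. Tfap2b alone made up 44.2%, 43.4% and 48.8% of their summed FPKM.

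**Figure D1:**
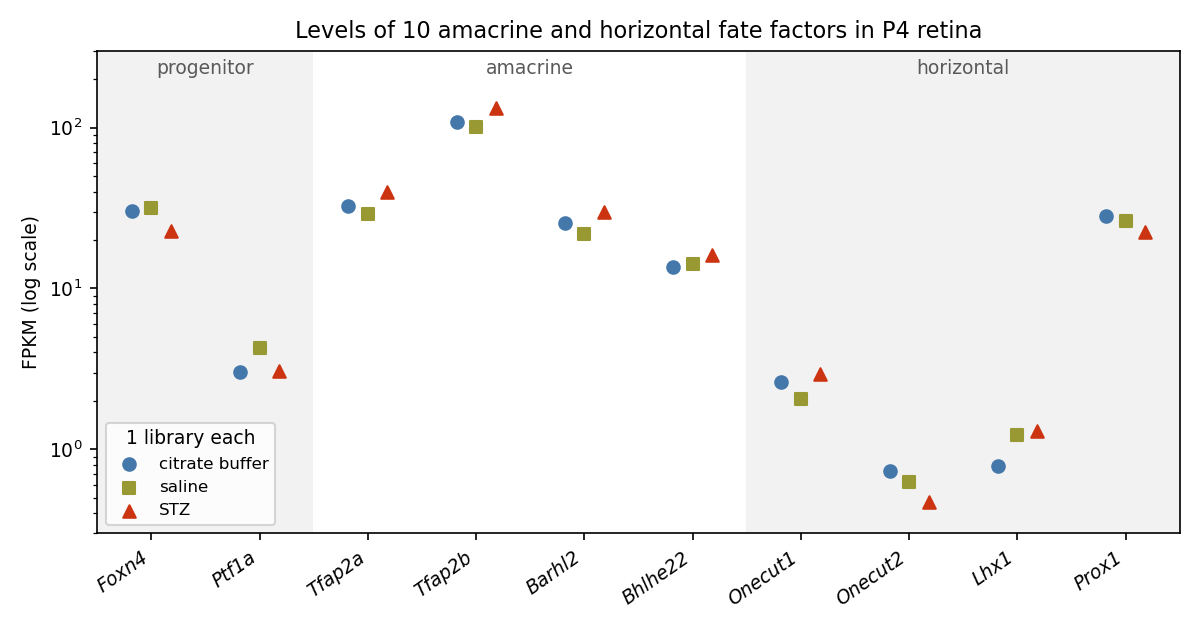
FPKM of the 10 factors on a log axis, grouped by role, with 1 point per library for citrate buffer, saline and STZ. The 4 amacrine factors were highest in the STZ library (Tfap2b 132 against 109 and 101), while Foxn4 and Prox1 were lowest there (22.7 and 22.3).

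None of the 10 factors passed the study's fold rule. By that rule a gene is called when (FPKM + 1)/(FPKM + 1) lies beyond a log2 fold of 0.62 upward or below 0.65, a log2 fold of -0.62. Against buffer, 0 of 10 were called in STZ, where 3.73% of the 14885 genes averaging 10 counts or more were called, 2.58% upward and 1.15% downward. Against saline, STZ again gave 0 of 10, with 4.33% of all genes called, 2.37% upward and 1.95% downward. Saline against buffer also gave 0 of 10, with 1.46% called, 1.01% upward and 0.443% downward. The folds ran from 0.76 for Foxn4 to 1.28 for Lhx1 against buffer, and from 0.722 for Foxn4 to 1.35 for Barhl2 against saline. Between the controls they ran from 0.845 for Onecut1 to 1.3 for Ptf1a.

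Smaller shifts were seen in the counts. The count ratio divides the share of reads that a gene took in the named library by its share in the control, with an exact Clopper-Pearson 95% interval that covers counting error only and says nothing of the spread between animals. Against buffer alone it lay above 1 for 6 of 10 factors (26.2% of all genes) and below 1 for 3 (18.8%), and against saline alone above 1 for 5 (26.9%) and below 1 for 4 (23.5%). Against both controls this interval lay above 1 for 5 of 10 factors, Tfap2a, Tfap2b, Barhl2, Bhlhe22 and Onecut1, beside 19.4% of all genes. It lay below 1 for 3 of 10, Foxn4, Prox1 and Onecut2, beside 14.8% of all genes. Intervals narrow with depth. Among the 8196 genes averaging 500 counts or more, 23.3% lay above 1 against both controls and 21.2% below, and of the 6 factors in that class 4 lay above and 2 below. Between the controls the interval excluded 1 for 5 of 10 factors, above 1 for Ptf1a (15.9% of all genes) and below 1 for Tfap2a, Tfap2b, Barhl2 and Prox1 (12.0%). Libraries without STZ thus also differed beyond counting error. With TMM scaling of the libraries, which lowers all ratios of STZ slightly, 5 factors lay above 1 and 3 below against buffer (21.2% and 23.4% of all genes), 5 and 4 against saline (24.8% and 25.8%), 5 and 3 against both (16.0% and 17.7%), and 1 and 4 between the controls (12.8% and 14.8%).

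**Figure D2:**
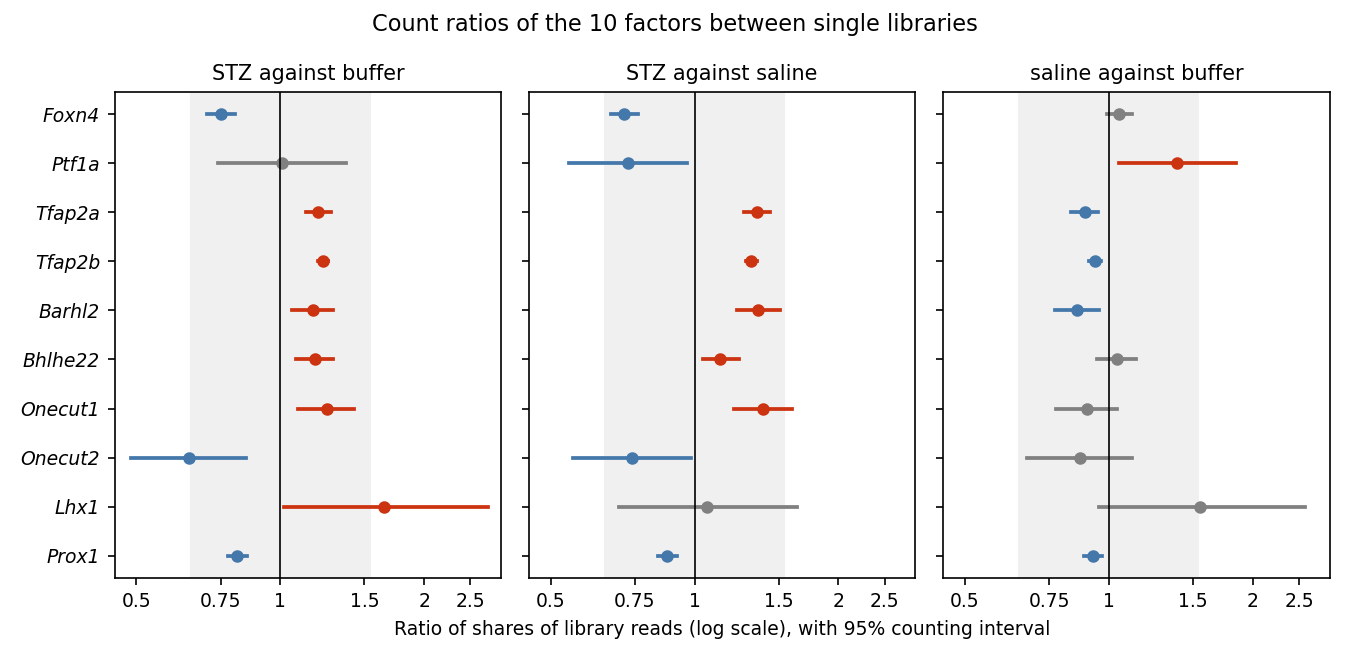
Count ratios of the 10 factors in the 3 comparisons, with 95% counting intervals (bars) on a log axis. Red marks intervals above 1, blue below 1 and grey those that include 1. The shaded band marks the values between the study's fold thresholds, which apply to folds of FPKM + 1 and not to these count ratios. Lhx1 (1.65) and Onecut2 (0.644) against buffer lie outside the band but were not called by the study's rule. The amacrine factors lay above 1 in both comparisons of STZ, from 1.13 to 1.36, and Foxn4 lay below 1 in both.

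Among the progenitor factors, Foxn4 (NCBI gene 288736) was the factor farthest below its controls on the study's fold scale. It had 2099 reads in buffer, 2212 in saline and 1582 in STZ, or 30.1, 31.8 and 22.7 FPKM. The controls lay close together and the STZ library stood apart from both. The count ratio was 0.752 against buffer (0.704 to 0.803) and 0.713 against saline (0.668 to 0.761), while saline against buffer gave 1.05 (0.993 to 1.12). Ratios as low as these were found for 6.65% of all genes against buffer and 7.82% against saline.

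Ptf1a (117034), the factor that Foxn4 activates, did not share this pattern. It had 87 reads in buffer, 121 in saline and, in the STZ library, 88. The saline library was high, and STZ and buffer were near each other. The count ratio in STZ was 1.01 against buffer (0.742 to 1.37) and 0.726 against saline (0.545 to 0.963). By counting error alone, ratios of Ptf1a against buffer from 0.742 to 1.37 are compatible with these reads, so the absence of a change cannot be read from them. The result for STZ thus turned on the control chosen, and saline against buffer gave 1.39 (1.05 to 1.85).

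The amacrine factors were higher in the STZ library than in both controls. Tfap2b (301285) had 10366 reads in buffer, 9688 in saline and 12763 in STZ. Its count ratio was 1.23 against buffer (1.2 to 1.26) and 1.31 against saline (1.28 to 1.35). Tfap2a (306862), which works redundantly with Tfap2b, had 2015, 1792 and 2431 reads. Its ratio was 1.2 against buffer (1.13 to 1.28) and 1.35 against saline (1.27 to 1.44). The AP-2 genes kept nearly the same proportion to each other, with Tfap2b at 3.33 times the FPKM of Tfap2a in buffer, 3.46 times in saline and 3.34 times in STZ.

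Barhl2 (65050), a homeodomain factor of glycinergic and GABAergic amacrine subtypes, had 748 reads in buffer, 642 in saline and, in the STZ library, 878. The ratio was 1.17 against buffer (1.06 to 1.29) and 1.36 against saline (1.23 to 1.51). Bhlhe22 (365748), a basic helix-loop-helix factor of amacrine and cone bipolar subtypes, had 865, 898 and 1021 reads, with ratios of 1.18 (1.08 to 1.29) and 1.13 (1.04 to 1.24). These were moderate shifts by the scale of the whole table: ratios as high as those of the 4 amacrine factors were found for 17.5% to 23.2% of all genes against buffer and for 9.56% to 27.9% against saline. For Tfap2a and Barhl2 the saline library also lay below buffer, with ratios of 0.89 (0.835 to 0.949) and 0.859 (0.772 to 0.956), so the distance from STZ was larger to saline than to buffer. In whole retina, a change in the number of cells of a type and a change in RNA per cell cannot be told apart. Nor can either be told apart from a change in the share of reads that came from other cells.

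The horizontal cell factors lay on different sides of the controls. Onecut1 (25231), a cut-homeodomain factor needed for horizontal cell genesis, had 387 reads in buffer, 348 in saline and 485 in STZ. Its count ratio was 1.25 against buffer (1.09 to 1.43) and 1.39 against saline (1.21 to 1.6). Its relative Onecut2 (307376) lay on the other side, with 138, 120 and 89 reads and ratios of 0.644 (0.488 to 0.846) and 0.74 (0.556 to 0.981). Onecut2 was the least abundant factor, at 0.73, 0.63 and 0.47 FPKM, so that the pseudocount of 1 held its fold at 0.85 against buffer and 0.902 against saline. By FPKM, Onecut1 was at 3.59 times the level of Onecut2 in buffer, 3.27 times in saline and 6.3 times in STZ.

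Lhx1 (257634), a LIM-homeodomain factor that places horizontal cells in their layer, had only 29 reads in buffer, 45 in saline and 48 in STZ. Saline and STZ were alike and buffer was low. Against buffer the ratio in STZ was 1.65 (1.02 to 2.72), but against saline it was 1.06 (0.694 to 1.64), and saline against buffer gave 1.55 (0.953 to 2.57). Prox1 (305066), a homeodomain factor of horizontal, AII amacrine and bipolar cells that also marks progenitors leaving the cell cycle, was far more abundant with 4297, 3986 and 3501 reads. It was lower in STZ, with ratios of 0.813 against buffer (0.778 to 0.851) and 0.876 against saline (0.837 to 0.917). Saline was itself below buffer at 0.928 (0.889 to 0.969).

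The deposited FPKM and read counts gave different ratios for Onecut1. The transcript length implied by its reads and FPKM was 6.72 kb in buffer, 7.69 kb in saline and 7.44 kb in STZ, so its FPKM carries a length that differs between libraries. The FPKM ratio was 1.13 in STZ against buffer, where the count ratio was 1.25. In saline against buffer the FPKM ratio was 0.786 and the count ratio 0.9. The largest implied length was 1.14 times the smallest for Onecut1 and 1.03 times for Prox1, and at most 1.01 times for the other factors. Of 13674 genes with at least 0.4 FPKM in every library, 4.01% exceeded 1.1 times. Which transcripts of Onecut1 were present was not tested.

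**Figure D3:**
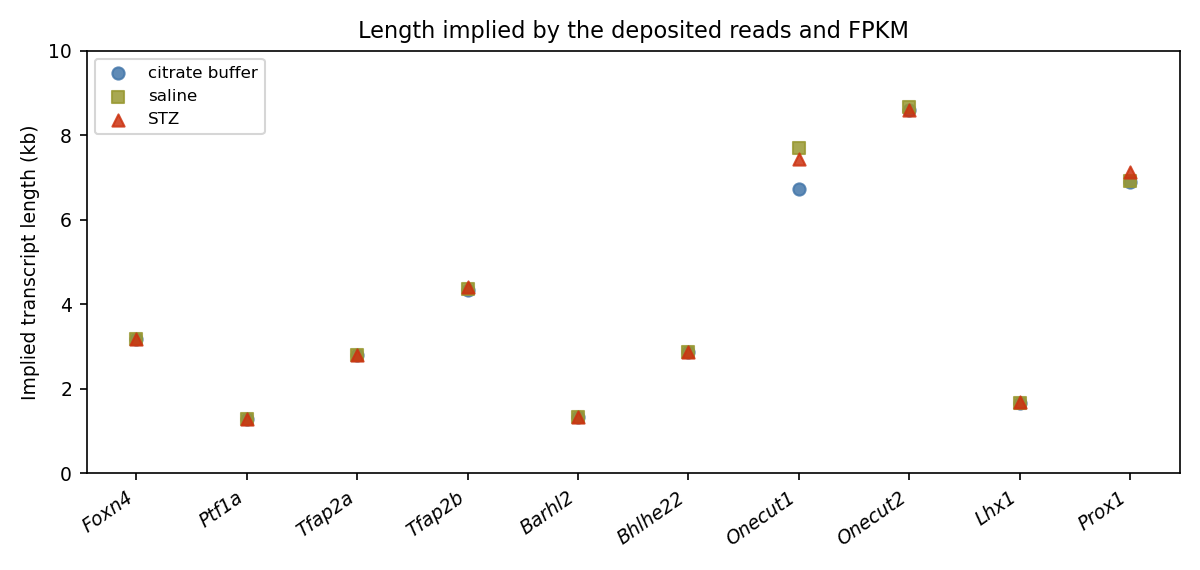
Transcript length in kb implied by the deposited reads and FPKM of each factor, with 1 point per library. The 3 points of Onecut1 lie apart, from 6.72 to 7.69 kb, while those of most other factors overlie each other.

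The proportions of factors within a library differed accordingly. In buffer Tfap2a stood at 1.08 times the FPKM of Foxn4, in saline at 0.918 times and in STZ at 1.74 times. Barhl2 relative to Foxn4 was 0.841, 0.685 and 1.31. Barhl2 relative to Prox1 was 0.893, 0.831 and 1.33. In each of these pairs the controls resembled each other more than either resembled STZ. The Foxn4 level relative to Ptf1a behaved differently, at 9.91 in buffer, 7.5 in saline and 7.38 in STZ. These pairs were chosen after their values were seen.

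The other AP-2 genes were examined as paralogs. Tfap2e had 506 reads in buffer, 489 in saline and 638 in STZ, with folds of 1.24 and 1.28 against the controls and a counting interval above 1 against both. Tfap2c had 747, 746 and 795 reads and Tfap2d 71, 66 and 87, and their intervals included 1 in at least 1 comparison of STZ. Bhlhe23, the paralog of Bhlhe22, had 17, 15 and 25 reads. Lhx5, Barhl1 and Prox2 were at 5 reads or fewer in every library too few to compare. Onecut3 and Foxn1 were not listed under those symbols among the deposited genes and could not be compared.

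By 2 log2 count ratios, STZ to buffer and saline to buffer, the genes with the pattern most like that of Foxn4 were Cmtm7, Arhgef3, LOC103693699, Gstm1 and Sox13, at distances of 0.0021 to 0.0216. With 3 libraries this likeness is loose, since 168 of 10181 genes lay within 0.1. Sox13, with the most reads of these 5, had 1528 reads in buffer, 1609 in saline and 1169 in STZ.

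Genes of the progenitor network were mostly lower in STZ. Of the 20 progenitor network genes that averaged 10 counts or more, 2 were below 0.65 against both controls (0.726% of all genes), among them Dll1, and 0 passed the upper threshold (1.63%). Dll1, a Notch ligand, had 2765 reads in buffer, 2999 in saline and 1561 in STZ and folds of 0.573 and 0.529. The counting interval lay below 1 against both controls for 16 of the 20 (14.8% of all genes) and above 1 for 1 (19.4%). Neurod1, the most abundant of them by mean FPKM (272 beside 268 for Pax6), had folds of 0.884 and 0.969. The network's median log2 fold was -0.34 against buffer and -0.33 against saline, with 0.04 between the controls, where all genes had 0.03, 0.01 and 0.02. Of genes chosen after their values were seen, Dll4, a Notch ligand that Foxn4 activates, had 1174, 1411 and 890 reads, Rorb, a nuclear receptor that acts with Foxn4 to induce Ptf1a, had 29271, 30027 and 22568, and Pax6, which amacrine cells keep, had 12271, 12506 and 12605.

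Among genes of differentiated amacrine and horizontal cells, some were higher in STZ by count and others were not. None of the 12 amacrine subtype factors passed the fold rule against either control, and for 4 of the 12 the counting interval lay above 1 against both (19.4% of all genes), with 0 below (14.8%). Meis2, the most abundant, had 6883 reads in buffer, 6657 in saline and 8054 in STZ. Of the 16 amacrine effector genes, 0 passed the fold rule against buffer and 1 was above it against saline, and 7 had an interval above 1 against both controls (again beside 19.4% of all genes) and 0 below (14.8%). Among the most abundant were the calcium-binding protein Calb2 with 2885 reads in buffer, 2820 in saline and 3627 in STZ, and the vesicular inhibitory transporter Slc32a1 with 2468, 2279 and 2747. Slc6a9, named after its values were seen, was not higher in STZ, with 2286, 2533 and 2285 reads. Of the 8 horizontal effector genes with enough counts, 3 lay above 1 against both, beside the same shares of all genes, and 0 below. Nefl had 1602, 1505 and 1729 reads, Nefm 2049, 1826 and 2103, and Megf10, which spaces horizontal cells, 3885, 3741 and 3891. The intervals of Nefm and Megf10 against buffer included 1, at 0.964 to 1.09 and 0.956 to 1.05. Neurofilament genes are also strong in ganglion cells.

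The median log2 fold set these lists side by side. Over the 10 fate factors it was 0.17 in STZ against buffer, 0.11 against saline and -0.10 in saline against buffer, a middle value of factors that lay in opposite directions. By role, the 4 amacrine factors had medians of 0.24 and 0.40 in STZ against buffer and saline, and the 4 horizontal factors -0.05 and -0.05, where the median log2 count ratio against buffer was 0.01. The amacrine subtype factors had 0.12 and 0.15, the amacrine effectors 0.14 and 0.18, and the horizontal effectors 0.15 and 0.19. The 8 cell cycle genes had -0.22 and -0.18, with Ccnd1 below 0.65 against both controls (0.726% of all genes). By counting interval 4 of these 8 lay below 1 against both controls (14.8% of all genes) and 1 above (19.4%). The 1 above was Ccnb1, named after its values were seen, at ratios of 1.31 and 1.25. Comparisons with STZ share that library, so their values are given together and are not independent.

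**Figure D4:**
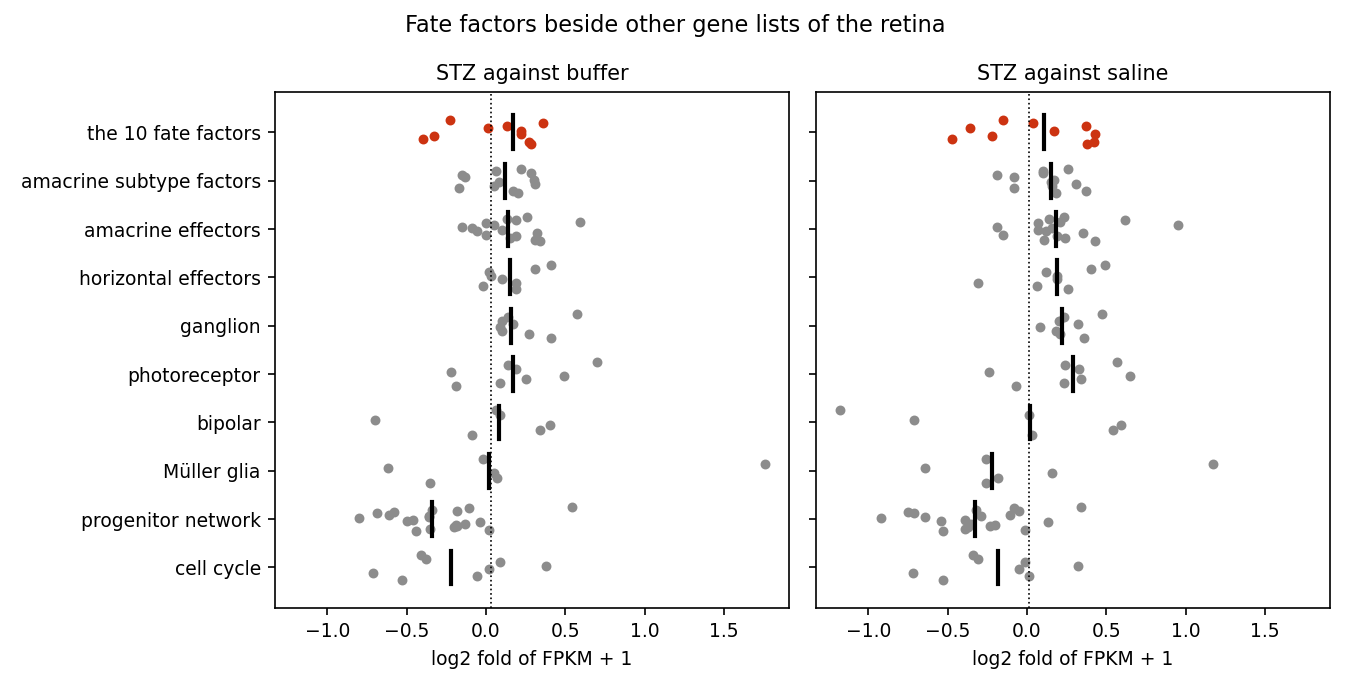
Log2 fold of FPKM + 1 for each gene of 10 lists (points, genes averaging 10 counts or more) in STZ against buffer and STZ against saline, with black bars at list medians and a dotted line at the median of all genes. The medians of the progenitor network (-0.34 and -0.33) and the cell cycle list lay to the left, and those of the amacrine and horizontal lists lay slightly to the right, with genes on both sides, while the 10 fate factors (red) spread to both sides.

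Other tissues of the eye also express some of these factors, since Prox1 and Tfap2a are lens genes and Prox1 marks lymphatic vessels. The 22 lens markers summed to 483 reads in buffer, 1079 in saline and 5080 in STZ. Of these, 11 crystallins passed the upper threshold against both controls (1.63% of all genes). Prox1 was lowest in the STZ library, where these markers were highest, and the part of lens RNA in the Tfap2a reads was not tested. The 11 ciliary and pigment epithelium markers summed to 2538, 9412 and 2596 reads, highest in saline, where Ptf1a and Foxn4 were also highest and Tfap2a, Tfap2b, Barhl2 and Onecut1 were lowest. Their part in those values was not tested. Of the surface and periocular markers, 5 were listed, with 31, 32 and 29 reads in sum and Twist1 the most abundant by FPKM. The 3 lymphatic genes listed summed to 1681, 1750 and 1362 reads, and Pdpn made up nearly all of this with 1625, 1687 and 1342. The others, named after their values were seen, lay on different sides of buffer, with 50, 40 and 6 reads for Flt4 and 6, 23 and 14 for Lyve1. Their part in the Prox1 values was not tested.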

How the data were processed

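RNA of whole P4 retina was sequenced from 3 libraries. The authors trimmed the reads, mapped them with TopHat2 (per the labels to rn6) and discarded reads with several locations. The authors calculated FPKM with an R script and deposited it with TPM and an estimated count per gene; how the estimated count was made is not given in the sources used here. The annotation is not given in the sources used here. The counts of all 10 factors are whole in every library. Other estimated counts were rounded.

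Groups came from the treatment labels. Folds were (FPKM + 1)/(FPKM + 1), called beyond a log2 fold of 0.62 or -0.62. Count ratios carry exact Clopper-Pearson 95% intervals. These intervals hold counting error alone. How PCR copies were treated is not given in the sources used here. Copies counted as reads would make the intervals too narrow. The text names all 10 factors, their paralogs, and in each of 14 other lists the genes called against both controls and the most abundant gene, or the 3 most abundant among amacrine and horizontal effectors. Some genes that this rule names are not reported here. Factors and lists were chosen with earlier results of these data known.

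Alternatives were a pseudocount of 0.1, TPM, CPM, factors of TMM (edgeR 4.0.16) and DESeq2 1.42.0 in R 4.3.3, other thresholds and minimum counts, and the mean of both controls. No model was fitted. On simulated data of 14885 genes for STZ against buffer, 98.0% of 200 genes changed 3-fold were recovered and 95.2% of intervals held the true ratio. The simulated counts held counting error only, so this checks the calculation and not the spread between animals. Shifts as small as those of the factors were not simulated. Python 3.11.15, numpy, pandas and scipy did the rest.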

Additional observations from a re-analysis of the deposited data

How the results depend on the processing

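No paired analysis was possible because each group is a single library, and leaving out a replicate would leave no group. In its intravitreal experiments the study gave STZ to right eyes and buffer to the left eyes of the same rats. Whether the STZ and buffer libraries came from such pairs of eyes is not given in the sources used here. The number of factors past the fold thresholds was 0 in each of the 3 comparisons with FPKM, TPM, CPM, TMM factors, DESeq2 factors and thresholds of 2 and 0.5. With a pseudocount of 0.1 it was 1 in STZ against buffer, Lhx1 at a log2 fold of 0.65. Counted by an interval that excludes 1, STZ gave 9 against buffer, where 26.2% of all genes lay above 1 and 18.8% below. It gave 9 against saline (26.9% and 23.5% of all genes), and the controls gave 5 (15.9% and 12.0%). With TMM factors, an alternative chosen after the data were seen, these became 8, 9 and 5, with Lhx1 against buffer lost. The shares of all genes above and below 1 were then 21.2% and 23.4%, 24.8% and 25.8%, and 12.8% and 14.8%. TMM scaling also moved the share of higher calls among all genes from 58.2% to 47.6% in STZ against buffer and from 57.0% to 46.2% between the controls. Of 160 values of single factors under the alternatives, 3 changed sign, all for Ptf1a in STZ against buffer, at -0.02 with TMM or DESeq2 factors and -0.19 with the mean of both controls. The median over the factors lay at 0.13 to 0.23 against buffer and 0.09 to 0.17 against saline. Depth limits Lhx1, Ptf1a and Onecut2 most.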

Other observations

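Genes of the other retinal cell types showed where the fate factors stood. The 8 ganglion cell genes had median log2 folds of 0.16 (STZ to buffer) and 0.22 (STZ to saline), with 5 of 8 count intervals above 1 against both controls (19.4% of all genes) and 0 below (14.8%). Sncg, a synuclein of ganglion cells, had 1229 reads in buffer, 1105 in saline and, in the STZ library, 1389. The 8 photoreceptor genes had medians of 0.17 and 0.29, with 6 intervals above 1 and 2 below, beside the same shares of all genes. Crx had 12972, 11780 and 13849 reads.

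The 6 bipolar genes that averaged 10 counts or more had medians of 0.08 and 0.02. By counting interval 2 lay above 1 against both controls (19.4% of all genes) and 1 below (14.8%). Irx5, a homeodomain factor of cone bipolar cells, was below 0.65 against both controls (0.726% of all genes), with 614, 613 and 376 reads. Grm6, the glutamate receptor of ON bipolar cells, had 3027, 2563 and 3823. Trpm1, named after its values were seen, was high in saline alone, with 13, 213 and 19 reads. The 6 Müller glia genes had medians of 0.02 and -0.22. By counting interval 2 lay above 1 against both controls and 2 below, beside the same shares of all genes. Apoe, which microglia also express, had 961, 1449 and 3305 reads. Its folds of 3.38 and 2.26 passed the upper threshold against both controls (1.63% of all genes). Rlbp1 had 6996, 6571 and 5501 reads. Sox9, the study's stain for Müller glia, is named after its values were seen. It had 778, 795 and 480 reads, with intervals below 1 against both controls.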
